A study of Mus musculus with 4 samples.

Results

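The 10 SR splicing factor genes Srsf1 to Srsf7, Srsf9, Srsf10 and Srsf11 were followed in the tibialis anterior (TA) muscle, the shin muscle that lifts the foot, of young and old C57BL/6 mice. They were picked by gene symbol, and each matched 1 locus among the 20605 loci (20340 gene labels) with a value in all 4 samples. The mice were wild type and untreated, aged 20 months in the 2 samples named Old 1 and Old 2 and 3 months in the 2 samples named Young 1 and Young 2. The paper describes them as healthy and of randomly selected sex, and the design text speaks of triplicates where 2 samples per age carry labels. Nothing in the labels says how many mice went into a sample. Each value is an FPKM, the fragments sequenced from a gene scaled by the length of its transcripts and by the fragments mapped in that sample.

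SR proteins bind RNA through RNA recognition motifs and carry a tail rich in arginine and serine. Bound to exons, they help the U1 and U2 snRNPs find the neighbouring splice sites, and several of them also act in mRNA export, translation and choice of the polyadenylation site. SRPK and CLK kinases phosphorylate the tail, which governs import into the nucleus and release from nuclear speckles. Many SR genes carry conserved "poison" exons or introns, whose use sends the transcript to nonsense-mediated decay and so tunes the level of the protein. In the GENCODE M21 annotation of mm10, 9 of the 10 genes had at least 1 transcript of the nonsense-mediated decay class (15 in all) and 8 had at least 1 with a retained intron (26 in all). An FPKM per gene does not separate these from the coding transcripts.

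For most genes with at least 10 FPKM, a factor of about 2 lay between the samples of each age. It was not the same for all genes. Over all loci, the FPKM summed to 698130 (Old 1), 226747 (Old 2), 251294 (Young 1) and 739302 (Young 2). Of the 20605 loci, 5223 (Old 1), 9558 (Old 2), 9452 (Young 1) and 5335 (Young 2) were listed at 0. Genes at 0 in any sample are outside the next comparison. Over 2447 genes that reached 10 FPKM in every sample, the median ratio was 1.97 for Old 1 to Old 2 and 1.94 for Young 2 to Young 1, so that Old 1 and Young 2 were the high samples and Old 2 and Young 1 the low ones. A figure legend of the paper speaks of 2 independent sequencing experiments per sample, without saying how many mice they used. Whether the 2 samples of an age come from separate mice or from 1 library was not tested, because FPKM alone cannot answer it. In the latter case n = 1 for each age and there is no replicate check. Values are therefore given for each sample, and the ages were compared in the high pair (Old 1 to Young 2) and in the low pair (Old 2 to Young 1), pairs set once the values were known. Genes of fast fibers were the most abundant markers in the 4 samples (9 of 10 with a value, summing to between 19760 and 127600 FPKM), although Ckm, the muscle creatine kinase gene, was listed at 0 in all 4. Markers of slow fibers summed to 421 and 1167 FPKM in old and to 27.9 and 73.0 FPKM in young muscles. All 5 measured were past the limma threshold as higher in old muscles, against 0.175% of all tested genes. Their part in the results on the SR genes was not tested. In whole muscle, fewer cells of a type and less RNA per cell cannot be told apart.

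Of the 10 SR genes, 7 were lower in old than in young muscles in both pairs (Srsf1, Srsf2, Srsf3, Srsf6, Srsf7, Srsf9 and Srsf10), with ratios from 0.707 to 0.843. Srsf4 and Srsf11 were higher, with ratios from 1.33 to 1.75, and Srsf5 had ratios of 1.03 and 1.02. For comparison, 45.2% of the 10266 tested genes were lower in both pairs and 42.3% were higher in both. Of the rest, 585 went both ways, and the others had no direction in a pair, as where both values were 0. All 10 SR genes had a direction. Among genes with a direction, both percentages would be higher, here and where they are used below. None of the 10 genes passed the test on the values as deposited, limma on log2(FPKM + 1) with an adjusted p under 0.05, which called 0.175% of all tested genes higher and 0.127% lower in old muscles. None reached an unadjusted p under 0.05 either, against 0.750% of all tested genes. The adjusted p from limma was 1.00 for each SR gene, and the standard error of the log2 difference was 0.93 to 0.97, about as large as the factor between samples of one age. After each sample was scaled to the same median, limma called 2 SR genes lower (Srsf2 and Srsf7) and 0 higher, against 7.50% and 5.06% of all tested genes. With the high and low pairs as a block, it called 7 SR genes lower and 1 higher (Srsf4), against 32.9% and 27.4% of all tested genes. These smaller errors measure only the spread left once the factor is removed.

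**Figure D1:**
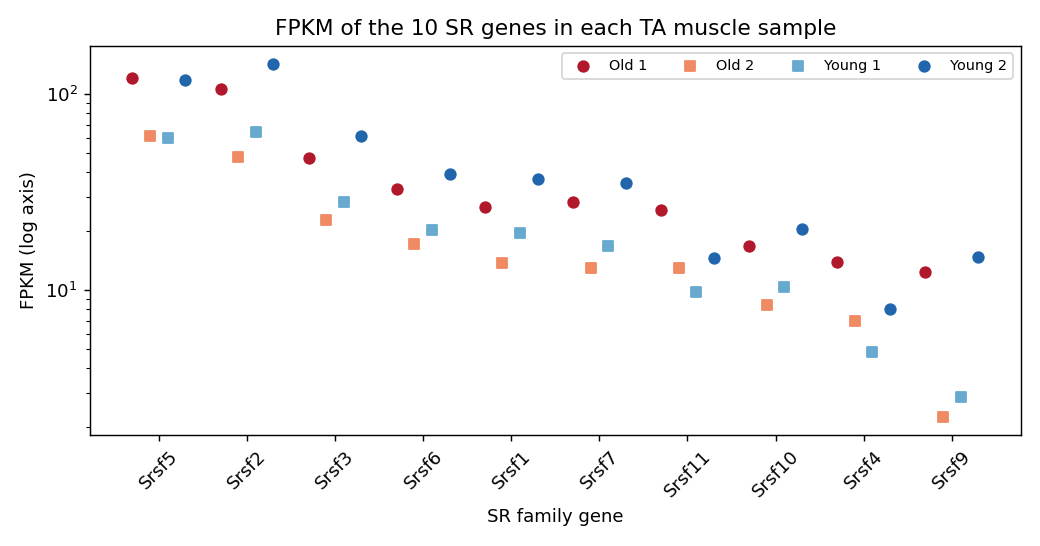
FPKM (log axis) of each SR gene in Old 1, Old 2, Young 1 and Young 2, with genes in the order of their mean share of the family. Circles mark the high samples and squares the low ones. In 7 genes both old symbols lie below the young symbol of the same shape, and in Srsf4 and Srsf11 both lie above it.

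Srsf1 (SF2/ASF), on chr11:88046882-88053757 (mm10 locus, plus strand), is the classical factor that promotes use of nearby splice sites in constitutive and alternative splicing. It had 26.5 FPKM (Old 1) and 13.8 FPKM (Old 2), against 19.6 FPKM (Young 1) and 37.0 FPKM (Young 2). The highest and lowest of these 4 values were Young 2 and Old 2, and the ages overlapped as deposited. Of the 10 genes it was the furthest below 1, at a ratio of 0.716 in the high pair and 0.707 in the low pair. The limma log2 difference was -0.47 (standard error 0.93), which placed Srsf1 at percentile 10.7 of all tested genes. Its locus also overlaps the antisense genes Gm11508 and 2010015M23Rik. Srsf9 (SRp30c), the closest relative of Srsf1 in the family, lies on chr5:115327176-115341161 (plus strand). It had 12.4 FPKM (Old 1) and 2.26 FPKM (Old 2), against 2.85 FPKM (Young 1) and 14.7 FPKM (Young 2). Here the samples of one age stood much further apart than in the other 9 genes, by a ratio of 5.49 in old and 5.16 in young muscles. Within the pairs Srsf9 was still lower in old muscles, at 0.841 and 0.791. The locus of Srsf9 has the same span as that of Gatc, a subunit gene of the mitochondrial glutamyl-tRNA amidotransferase on the opposite strand. This leaves the level of Srsf9 uncertain, although the genes themselves do not overlap in the GENCODE M21 annotation. Gatc had ratios of 2.19 and 2.15 between samples of one age and of 0.900 and 0.885 in the pairs.

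Srsf2 (SC35), a marker of nuclear speckles that also acts in transcription elongation, lies on chr11:116849850-116875642 (minus strand). The FPKM of Srsf2 was 107 (Old 1) and 47.8 (Old 2), against 64.2 (Young 1) and 143 (Young 2). Again the low old sample was the lowest and the high young sample the highest. The ratio was 0.745 in both pairs, the log2 difference was -0.42 (standard error 0.97), and after median scaling the adjusted p from limma was 0.046. Srsf2 shares this locus span with Mfsd11, which runs over its 5′ end on the opposite strand and had 13.3, 2.12, 2.43 and 15.6 FPKM in Old 1, Old 2, Young 1 and Young 2. Mettl23, also on the opposite strand, overlaps Srsf2 as well. The methods name a stranded kit and the labels a kit without that word, so reads of these overlaps may not have been told apart.

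Srsf3 (SRp20) and Srsf7 (9G8) are adaptors of the mRNA export receptor Nxf1 as well as splicing factors, and both lie on chromosome 17, at chr17:29032659-29043372 (plus strand) and chr17:80200079-80207346 (minus strand). Srsf3 had 47.5 FPKM (Old 1), 22.9 FPKM (Old 2), 28.2 FPKM (Young 1) and 61.0 FPKM (Young 2). Srsf7 had 28.2 FPKM (Old 1), 13.0 FPKM (Old 2), 16.8 FPKM (Young 1) and 35.2 FPKM (Young 2). In both genes the old value was below the young value of its pair. The ratios were 0.779 and 0.813 for Srsf3 and 0.801 and 0.771 for Srsf7. The adjusted p from limma after median scaling was 0.0586 for Srsf3 and 0.0485 for Srsf7, on either side of the threshold at log2 differences of -0.31 and -0.32, so the call does not separate them.

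Srsf4 (SRp75), Srsf5 (SRp40) and Srsf6 (SRp55) form a subgroup with related sequence, yet they differed in direction. Srsf4, on chr4:131873638-131901725 (plus strand), had 14.0 FPKM (Old 1) and 6.98 FPKM (Old 2), against 4.87 FPKM (Young 1) and 7.99 FPKM (Young 2). Old 1 was the highest, and Old 2 lay above Young 1 but below Young 2. Srsf4 was 1.75-fold higher in old muscle in the high pair and 1.43-fold in the low pair. Its log2 difference was 0.59 (standard error 0.96), at percentile 95.1 of all tested genes. With the pairs as a block the adjusted p from limma was 0.0369, and with median scaling alone it was 0.0817. The locus overlaps the antisense gene Gm12992 and, on the same strand, A930004J17Rik, whose reads strand could not separate from those of Srsf4. For Srsf5, on chr12:80942651-80950507 (plus strand), the FPKM was 121 (Old 1), 61.4 (Old 2), 60.1 (Young 1) and 118 (Young 2). Its locus has the same span as that of Gm20337, on the opposite strand, which had 1.21 FPKM (Old 1) and 1.76 FPKM (Young 2) and was listed at 0 in the low samples. The old and young values of Srsf5 in each pair differed by 2.6% or less, and the log2 difference was 0.03 (standard error 0.97). Srsf6, on chr2:162931507-162937120 (plus strand), had 33.0 FPKM (Old 1), 17.2 FPKM (Old 2), 20.4 FPKM (Young 1) and 39.1 FPKM (Young 2). It was lower in old muscle by the same ratio, 0.843, in both pairs.

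Srsf10 (SRp38) represses splicing when it loses its phosphates, as after heat shock, and lies on chr4:135856091-135869899 (plus strand). The 4 values were 16.7 FPKM (Old 1), 8.46 FPKM (Old 2), 10.4 FPKM (Young 1) and 20.5 FPKM (Young 2). Old was below young at ratios of 0.817 and 0.813. Srsf11 (p54), an SR-related protein found with U2AF in early splicing complexes, lies on chr3:158010492-158036639 (minus strand), where Gm43362 overlaps it on the same strand. It had 25.6 FPKM (Old 1) and 13.0 FPKM (Old 2), against 9.78 FPKM (Young 1) and 14.6 FPKM (Young 2). Both old values were above the young value of their pair, by 1.75-fold and 1.33-fold, while Old 2 remained below Young 2. Its log2 difference was 0.57 (standard error 0.94), at percentile 94.5 of all tested genes, and with the pairs as a block the adjusted p from limma was 0.0626.

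**Figure D2:**
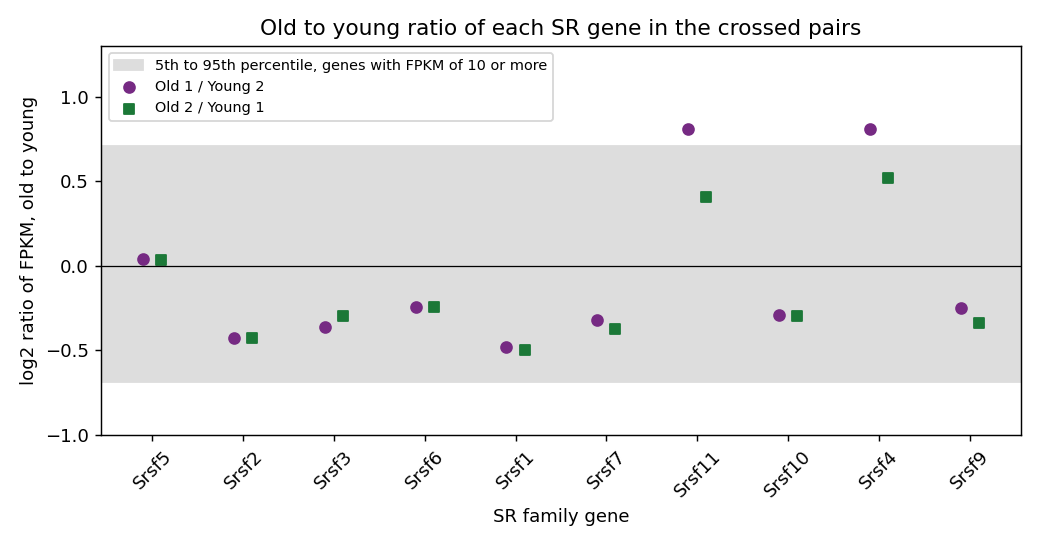
log2 ratio of FPKM, old to young, of each SR gene in the high pair (Old 1 to Young 2, circles) and in the low pair (Old 2 to Young 1, squares). The grey band runs from the lower 5th percentile to the higher 95th percentile of the pairs, -0.69 to 0.71, over the 2447 genes with at least 10 FPKM in all 4 samples. Srsf4 and Srsf11 lie above the band in the high pair (0.81 each) and inside it in the low pair, and the other 8 genes lie inside it in both. Srsf4, Srsf9, Srsf10 and Srsf11 fall under 10 FPKM in at least 1 sample, so the band comes from more abundant genes than these.

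Within an age, 7 of the 10 genes kept to the common factor, with ratios from 1.89 to 2.23 in both ages. Besides Srsf9, the exceptions were Srsf4 and Srsf11, and these in young muscles alone. Young 2 held 1.64 times the FPKM of Young 1 for Srsf4 and 1.498 times for Srsf11, while Old 1 to Old 2 was 2.003 and 1.97. The 5th percentile of the young ratio was 1.79 over the 2447 genes with at least 10 FPKM in all 4 samples, which do not include Srsf4 and Srsf11. For the 2 genes that stood highest in old muscles, the size of the difference thus depended on the pair taken, from 43.5% to 75.0% for Srsf4 and from 32.7% to 75.0% for Srsf11.

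**Figure D3:**
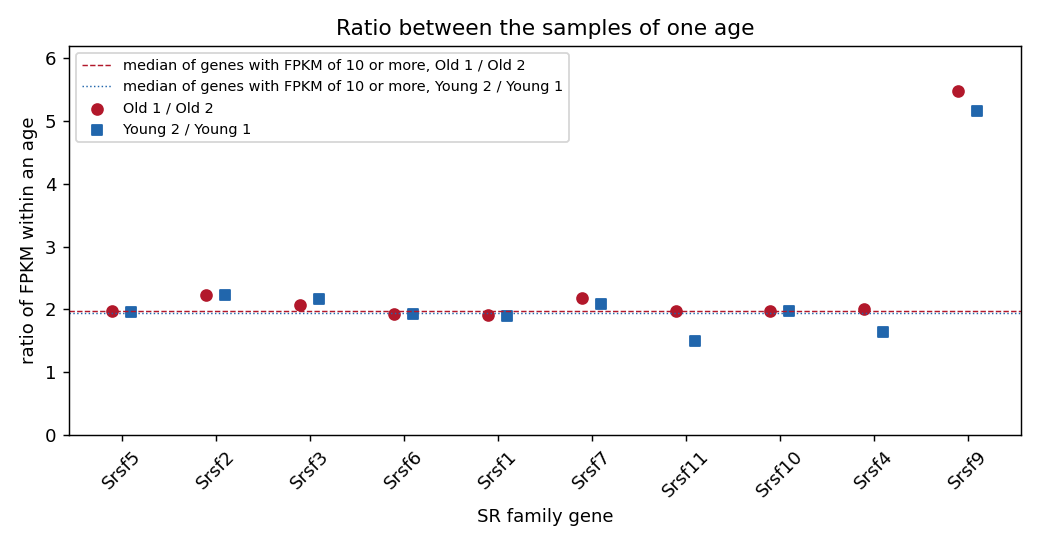
Ratio of FPKM between the 2 samples of one age for each SR gene (circles, Old 1 to Old 2; squares, Young 2 to Young 1), with the medians over 2447 genes as lines at 1.97 and 1.94. Srsf9 stands apart at 5.49 and 5.16, and the young ratios of Srsf11 (1.498) and Srsf4 (1.64) are the lowest.

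The summed level of the family was 431 FPKM (Old 1), 207 FPKM (Old 2), 237 FPKM (Young 1) and 491 FPKM (Young 2). The sum was lower in old muscles by a ratio of 0.878 in the high pair and 0.872 in the low pair. Across the 4 samples the log2 difference was -0.19 (exact permutation test, two-sided p = 0.667, where 2 samples against 2 allow no p under 0.333). This test does not use the pairs. The sum differed between the samples of one age by ratios of 2.086 (old) and 2.071 (young), so the test cannot judge the difference within pairs. Of the FPKM of all loci, the family held 0.0618% in Old 1 and 0.0664% in Young 2, the high samples, and 0.0912% in Old 2 and 0.0944% in Young 1.

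A gene's share of the family sum does not depend on a factor common to a sample. Srsf5, Srsf2 and Srsf3 together held 63.7% to 65.6% of the sum in each of the 4 samples. Which gene came first differed between the ages. Srsf5 led in old muscles, with 28.0% in Old 1 and 29.7% in Old 2 against 25.3% in Young 1 and 24.0% in Young 2. Srsf2 led in young muscles, with 27.1% and 29.2% against 24.7% and 23.1% in old muscles. Below them Srsf3 (11.0% to 12.4%) and Srsf6 (7.64% to 8.59%) came next, in that order, in all 4 samples. Srsf1 was above Srsf7 in 3 of 4 samples and Srsf7 above Srsf11 in 3 of 4, while Srsf11 and Srsf10 changed places, 2 samples each way. For its part, Srsf11 held 5.94% and 6.28% in old muscles against 4.12% and 2.98% in young, and Srsf4 held 3.24% and 3.37% against 2.05% and 1.63%. Srsf10 was above Srsf4 in all 4 samples. Srsf4 was above Srsf9 in 3 of 4, and the share of Srsf9 ran from 1.09% to 3.00% with the samples of each age far apart.

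In shares, Srsf4, Srsf5 and Srsf11 were above both young samples in each old sample, and Srsf1, Srsf2, Srsf3, Srsf7 and Srsf10 were lower in both. Divided by the same sums, 41.6% of all tested genes were higher and 18.3% lower in both old samples. As deposited, 0 of the 10 genes separated the ages, against 1.61% of tested genes with both old samples above and 1.93% with both below. Each of the 8 separated shares had the smallest p the design allows (exact permutation test, two-sided p = 0.333, 0.416 after Benjamini-Hochberg adjustment over the 10 genes), so none can pass a threshold of 0.05. The shifts in mean share were 4.19 percentage points for Srsf5, 2.56 for Srsf11 and 1.47 for Srsf4, against -4.19 for Srsf2, -1.47 for Srsf1, -1.10 for Srsf3, -0.73 for Srsf7 and -0.29 for Srsf10. In a further setting, Srsf2 and Srsf9, whose levels are uncertain, were left out of the sum. The shifts were then 3.59 for Srsf5, 3.17 for Srsf11 and 1.84 for Srsf4. They were -2.65 for Srsf1, -2.52 for Srsf3, -1.58 for Srsf7, -1.10 for Srsf6 and -0.76 for Srsf10. Srsf1, Srsf4, Srsf5 and Srsf11, whose loci also overlap other genes, stayed in that sum.

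**Figure D4:**
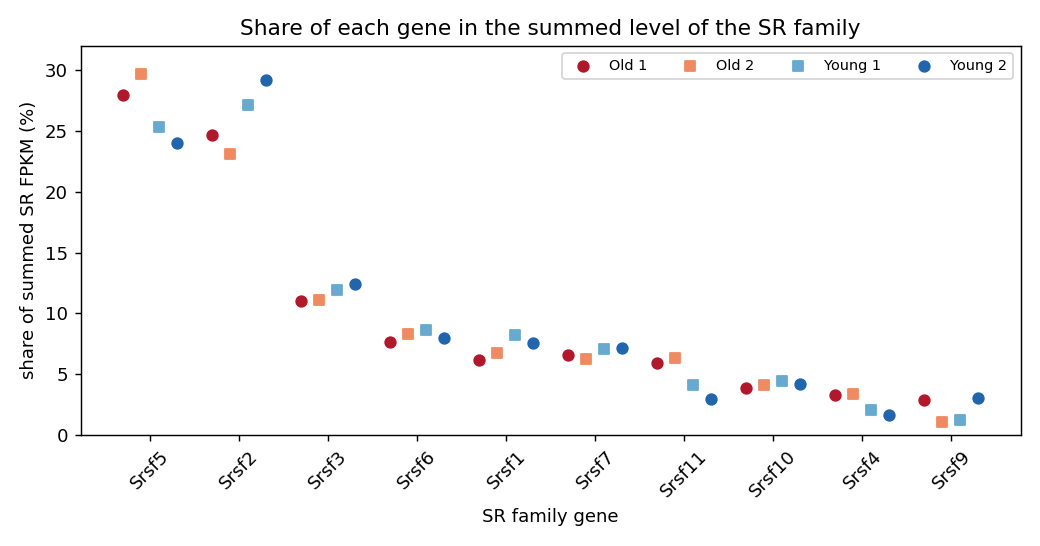
Share of each gene in the summed FPKM of the 10 SR genes (%), in Old 1, Old 2, Young 1 and Young 2. Srsf5 and Srsf2 change places between the ages (28.0% and 29.7% against 25.3% and 24.0% for Srsf5), and the shares of Srsf11 and Srsf4 are higher in both old samples.

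Promoter sequences from RefSeq (GRCm38.p6, 250 bases before to 50 after the start site) matched all 10 genes. The 4 shown are those of the 2 genes with the highest log2 difference and the 2 with the lowest, to let the genes that stood apart be compared. Capitals mark matches on either strand to the GC box (GGGCGG), the CCAAT box (CCAAT), the ETS core (CCGGAAG), the TATA box (TATAAA), the cyclic AMP response element (TGACGTCA), the E-box (CACGTG) and the FoxO core (GTAAACA). Neighbouring matches can run together or overlap, and the windows are chr4:131873387-131873686 (plus strand, Srsf4), chr3:158036557-158036856 (minus strand, Srsf11), chr11:88047123-88047422 (plus strand, Srsf1) and chr11:116853045-116853344 (minus strand, Srsf2).
Srsf4: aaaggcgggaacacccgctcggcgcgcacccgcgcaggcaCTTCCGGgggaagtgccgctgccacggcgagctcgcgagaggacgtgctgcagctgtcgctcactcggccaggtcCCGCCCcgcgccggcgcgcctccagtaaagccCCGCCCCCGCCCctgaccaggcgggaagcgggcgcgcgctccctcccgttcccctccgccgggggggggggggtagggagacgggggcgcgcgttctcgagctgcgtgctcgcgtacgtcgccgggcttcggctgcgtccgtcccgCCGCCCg
Srsf11: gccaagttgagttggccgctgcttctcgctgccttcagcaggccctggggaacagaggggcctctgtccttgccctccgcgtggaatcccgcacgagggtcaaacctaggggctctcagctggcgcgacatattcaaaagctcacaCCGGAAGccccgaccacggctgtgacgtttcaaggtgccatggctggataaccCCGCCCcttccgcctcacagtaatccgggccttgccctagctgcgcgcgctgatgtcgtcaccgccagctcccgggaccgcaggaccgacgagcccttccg
Srsf1: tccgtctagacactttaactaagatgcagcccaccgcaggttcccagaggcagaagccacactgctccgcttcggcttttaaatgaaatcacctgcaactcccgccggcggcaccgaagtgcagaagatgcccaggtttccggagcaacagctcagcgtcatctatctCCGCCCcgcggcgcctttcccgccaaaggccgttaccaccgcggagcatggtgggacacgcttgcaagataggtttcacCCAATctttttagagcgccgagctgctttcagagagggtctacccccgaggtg
Srsf2: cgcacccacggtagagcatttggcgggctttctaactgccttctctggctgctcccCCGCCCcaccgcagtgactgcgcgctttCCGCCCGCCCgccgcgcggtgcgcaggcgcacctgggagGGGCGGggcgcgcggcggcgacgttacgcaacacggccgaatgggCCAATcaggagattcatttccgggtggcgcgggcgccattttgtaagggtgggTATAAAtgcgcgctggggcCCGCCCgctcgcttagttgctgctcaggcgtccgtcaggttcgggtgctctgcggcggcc

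The promoters of Srsf4 and Srsf11 held the ETS core and no CCAAT box, and those of Srsf1 and Srsf2 held a CCAAT box and no ETS core. Over all 10 genes, the ETS core was found in Srsf4, Srsf5, Srsf7 and Srsf11, and in 8.86% of 32851 promoters. Of these, Srsf7 was lower in old muscles in both pairs (0.801 and 0.771) and Srsf5 was nearly level (1.03 and 1.02). Srsf6 and Srsf9, also lower in both pairs, had neither the ETS core nor the CCAAT box. The contrast between the 4 printed genes, picked as extremes, thus did not hold over the family. The CCAAT box was found in Srsf1, Srsf2, Srsf3 and Srsf10 (37.4% of all promoters), and the TATA box in Srsf2 and Srsf3 (13.6%). A GC box lay in 9 of the 10, all but Srsf3, against 35.7% of all promoters, and the GC content of the 4 printed windows was 58.3% to 77.7%, against a median of 52.7%. The FoxO core was found in Srsf6 alone (3.65% of all promoters), and the cyclic AMP response element (1.79%) and the E-box (7.15%) in 0 of 10. A match is a description of the letters in this window.

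Genes that act on SR proteins or resemble them were listed and counted in the same way, and none was past the limma threshold as deposited or at an unadjusted p under 0.05. SR-related proteins were mostly on the other side of 1 from the SR genes. Of 20 listed, 19 were tested, and 16 were higher in old muscles in both pairs, 2 were lower and 1 went both ways, where 42.3% of all tested genes were higher in both and 45.2% lower. Their median log2 difference was 0.41, against -0.26 for the 10 SR genes and -0.01 for all tested genes. With the pairs as a block limma called 12 of the 19 higher and 2 lower, against 27.4% and 32.9% of all tested genes. After median scaling it called 0, against 5.06% higher and 7.50% lower of all tested genes. The difference between the lists was not tested. Acin1, a component of the exon junction complex, had 21.99 FPKM (Old 1) and 10.8 FPKM (Old 2), against 7.40 FPKM (Young 1) and 11.9 FPKM (Young 2), at ratios of 1.85 and 1.46. Luc7l3, a protein of the U1 snRNP, had ratios of 1.80 and 1.32, and its relative Luc7l2 of 1.58 and 1.36. For Son and Srrm2, the scaffold proteins of nuclear speckles, the ratios were 1.27 and 1.25, and 1.28 and 1.15. The 2 lower genes were Tra2a, with 16.9, 6.67, 9.84 and 23.7 FPKM in Old 1, Old 2, Young 1 and Young 2 (ratios of 0.715 and 0.678), and Tra2b (0.855 and 0.859). These are the transformer-2 proteins, which bind exonic enhancers as SR proteins do. U2af2, the large subunit of U2AF, was level at 1.00 and 0.998. Srsf12 was listed at 0 in 3 samples and had 0.0334 FPKM (Young 2), and was not tested.

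Of 11 genes for the kinases and the import of SR proteins, 9 had a value and were tested, 6 higher in both pairs and 3 lower (42.3% and 45.2% of all tested genes), with a median log2 difference of 0.08. With the pairs as a block limma called 3 of the 9 higher (Clk2, Prpf4b and Tnpo3) and 2 lower (Clk1 and Dyrk1a), against 27.4% and 32.9% of all tested genes. Among the CLK kinases, which phosphorylate SR proteins in the nucleus, Clk1 had ratios of 0.922 and 0.899, Clk4 of 0.994 and 0.967, and Clk2 of 1.15 and 1.11. The ratios were 1.20 and 1.10 for Srpk1 and 1.13 and 1.00 for Srpk2, the cytoplasmic kinases, and 1.04 and 1.05 for Tnpo3, the import receptor of SR proteins. Prpf4b, a kinase of spliceosome assembly, had 16.1 FPKM (Old 1) and 8.28 FPKM (Old 2), against 5.73 FPKM (Young 1) and 9.66 FPKM (Young 2). Its ratios of 1.66 and 1.45, and those of Top1 (1.702 and 1.33), a topoisomerase that can also phosphorylate SR proteins, were the largest of the list. Of 14 nonsense-mediated decay and exon junction genes, 8 had a value and were tested, 6 higher in both pairs, 1 lower and 1 both ways (42.3% of all tested genes were higher in both and 45.2% lower). Upf2, an adaptor of the decay complex, stood furthest from 1, with 12.7, 6.67, 3.39 and 5.26 FPKM in Old 1, Old 2, Young 1 and Young 2 (2.42-fold and 1.97-fold). Of the exon junction genes, Rbm8a had ratios of 1.15 and 1.18, its partner Magoh of 1.06 and 1.07, Eif4a3 of 0.988 and 0.984, and Casc3 of 1.04 and 0.935. With the pairs as a block limma called 4 of the 8 decay and exon junction genes higher and 0 lower, against 27.4% and 32.9% of all tested genes. After median scaling it called 0 genes of this list and 0 of the kinase and import list, against 5.06% higher and 7.50% lower of all tested genes.

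**Figure D5:**
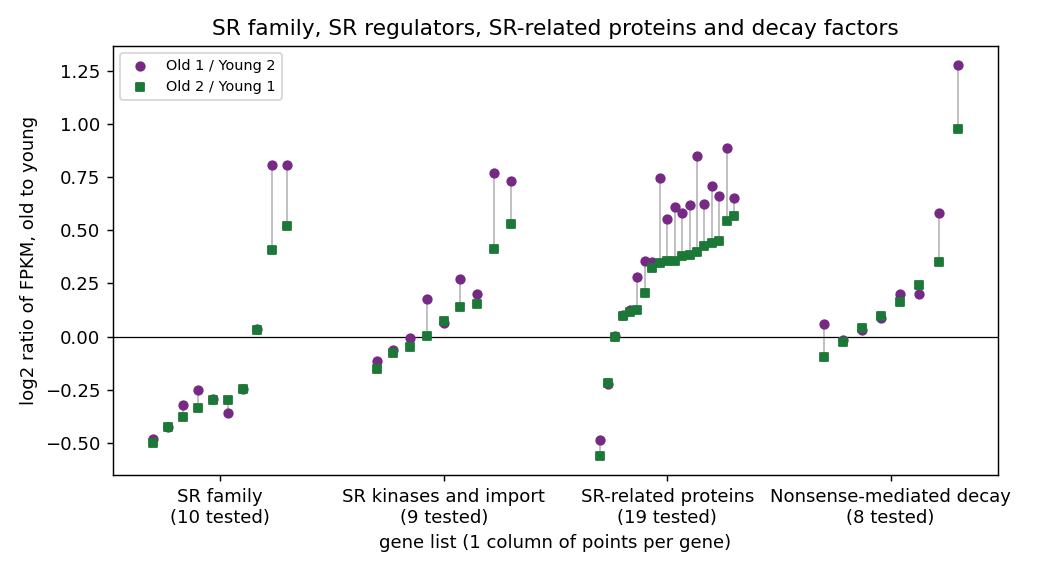
log2 ratio of FPKM, old to young, in the high pair (circles) and in the low pair (squares) for each tested gene of 4 lists, each gene a column joined by a line. Most SR genes lie below 0 and 16 of 19 SR-related genes above it in both pairs, and Upf2 is the highest point (1.27 and 0.98).

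Markers of the other cell types of muscle gave the following counts beside these values, and their part was not tested. Endothelial markers were lower in both pairs for 3 of 5 tested genes (median log2 difference -0.26), fibroblast markers for 4 of 6 (-0.80), Schwann cell markers for 3 of 3 (-0.60), macrophage and leukocyte markers for 3 of 4 (-0.41) and satellite cell markers for 2 of 3 (-0.26), where 45.2% of all tested genes were lower in both pairs. In the same lists 1 endothelial, 2 fibroblast and 1 satellite cell marker were higher in both pairs. Dcn, the most abundant fibroblast marker, was among them, at ratios of 1.237 and 1.215, so the fibroblast list did not move in 1 direction. Adipocyte markers were higher in both pairs for 3 of 5 (0.24) and fast-fiber markers for 4 of 8 (0.08), where 42.3% of all tested genes were. In the order of old and then young samples, the summed level of the endothelial list was 104 and 53.2 FPKM against 66.7 and 129 FPKM, and that of the fibroblast list 179 and 92.2 FPKM against 132 and 261 FPKM. The same sums were 44.8 and 21.1 FPKM against 32.3 and 66.1 FPKM for Schwann cells, 19.0 and 7.14 FPKM against 11.7 and 28.8 FPKM for macrophages and leukocytes, and 20.9 and 9.01 FPKM against 11.1 and 25.3 FPKM for satellite cells. After median scaling limma called 3 fibroblast, 2 Schwann cell, 1 endothelial and 1 macrophage or leukocyte marker lower, against 7.50% of all tested genes. With the pairs as a block it called 4 fibroblast markers lower and 2 higher, against 32.9% and 27.4% of all tested genes. The sums were 447 and 168 FPKM against 184 and 501 FPKM for adipocytes. Of all these lists, only the fast-fiber list had a gene at 0 in all 4 samples, Ckm.

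By the distance of centred log2 FPKM over the 4 samples, the genes most like the family sum among 2441 genes with at least 10 FPKM in all samples were Sucla2, Snrpe, 4833439L19Rik, Triap1 and 2810432D09Rik (distances of 0.0189 to 0.0321). Sucla2 had 336, 164, 185 and 384 FPKM in Old 1, Old 2, Young 1 and Young 2.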

How the data were processed

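mRNA was sequenced from TA muscle in 2 old and 2 young samples, grouped and numbered by their labels. Reads were trimmed by the authors, cleared of PCR duplicates, and aligned to mm10 with TopHat2 2.0.10 guided by RefSeq genes. The FPKM values deposited by the authors came from Cufflinks, run per sample. The submitters' processing notes also name Cuffdiff 2.1.1. How reads with more than 1 alignment were counted, and whether strand was used, is not given in the sources used here. FPKM values hold no counts, so depth is unknown.

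The incomplete last line of each table was left out, as were 542 loci without a value in all samples. Loci with the same symbol were summed. Old and young samples were tested with limma 3.58.1 (R 4.3.3, two-sided, trend, Benjamini-Hochberg) on log2(FPKM + 1), for the 10266 genes that reached 1 FPKM in 2 or more samples. The fits were run on simulated data, with equal samples and with a factor between the high and low samples. Recovery of the changed genes was required only with equal samples. This does not show that the fit on values as deposited can find changes beside such a factor. Single values used exact permutation tests. Fold changes on this scale understate the change of low genes. Ratios are of plain FPKM. Tables and figures used Python 3.11.15, pandas 2.3.3 and matplotlib 3.10.9.

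The genes and lists were chosen with earlier results of these data known. All SR genes and any gene of the kinase, SR-related and decay lists could be named, and of marker lists only the highest and those at 0. Same-numbered samples deviated in opposite directions (correlation -0.885 across genes), so their numbers were not used as pairs. Alternatives covered pseudocount, filter, scaling, summing, blocks, trend and leaving out samples.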

Additional observations from a re-analysis of the deposited data

How the results depend on the processing

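The log2 difference of each SR gene kept its direction under a pseudocount of 0.1, median scaling and quantile normalization. The blocks, the filters, the trend and the summing leave the difference of these genes as it is by construction, and bear only on its error. The SR genes past the threshold were so under median scaling or a block of the crossed pairs (the high samples and the low samples), which was added after seeing the data. The number of SR genes past the threshold was 0 as deposited, 2 with median scaling, and 8 under that block, with or without median scaling. Over all genes, 18 were higher and 13 lower as deposited. These counts were 0 and 0 with no filter, 4 and 2 when 1 FPKM was required of every sample, 519 and 770 with median scaling, 119 and 188 with quantile normalization, 2812 and 3374 when the crossed pairs formed a block, and 3204 and 3521 with both. The replicate block (same-numbered samples paired, whose deviations had a correlation of -0.885) gave 2 and 3, with 0 SR genes, and left the log2 difference of the family sum at -0.19. With 1 sample left out, the lone sample of an age was assumed to vary like the other age. The counts then ranged from 2 to 6 higher and from 3 to 10 lower, with 0 SR genes in each case.

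With 1 sample left out, the log2 difference ranged from -0.99 to 0.15 for Srsf2, -0.86 to 0.22 for Srsf3, -0.45 to 0.52 for Srsf5, -0.69 to 0.22 for Srsf6, -0.86 to 0.20 for Srsf7, -1.26 to 0.78 for Srsf9 and -0.73 to 0.18 for Srsf10. It kept its sign for Srsf1 (-0.91 to -0.02), Srsf4 (0.14 to 1.04) and Srsf11 (0.11 to 1.04). For the family sum it ranged from -0.72 to 0.34. In the other settings run it was negative, at -0.11 without Srsf2 and Srsf9, -0.11 as the mean over genes and -0.28 without Srsf5, the gene with the highest mean share. By mean FPKM the highest gene was Srsf2, and the sum without Srsf2 alone was not run. Shares kept their direction except for Srsf6 (-0.63 to 0.03 percentage points) and Srsf9 (-1.02 to 0.78) when a sample was left out. Depth is unknown, so counting error limits these values by an amount that cannot be given.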

Other observations

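The low ratio of Young 2 to Young 1 seen for Srsf4 and Srsf11 was shared by few genes. Of 4387 genes with at least 4 FPKM in all 4 samples, 100 (2.28%) had a ratio under 1.7, a limit set after the values were seen. Among them were 2 SR genes, 7 SR-related genes, 2 genes of the kinase and import list and 0 of the decay list. The filter of 4 FPKM left out Upf2 of the decay list (ratio 1.55, 3.39 FPKM in Young 1). It also left out Sfswap of the SR-related list (ratio 1.68, 3.75 FPKM in Young 1). Of these 100 genes, 92 were higher in Old 2 than in Young 1, against 2025 of the other 4287 (47.2%). Both measures use Young 1, no test was made, and the cause was not tested.

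Of the 3 SR genes that share a locus span with a neighbour, Srsf5 had a partner, Gm20337, listed at 0 in 2 samples. In the other pairs of neighbours, Srsf9 and Mfsd11 had ratios between the samples of one age of 5.16 to 6.43, while their partners Gatc and Srsf2 had ratios of 2.15 to 2.23. In the crossed pairs, the ratios of Srsf9 and Mfsd11 were 0.791 to 0.872.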
